A study of Mus musculus with 12 samples.

Results

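Fos, Jun, Egr1, Egr2, Egr3, Dusp4 and Dusp6 were followed across 12 breast tumors of mice treated with a STING agonist, a PARP inhibitor or both. The genes were taken by symbol from the table of normalized mRNA counts, which holds 750 genes, and all 7 were found and passed the filter on low values described with the tests. Immediate-early genes are transcribed within minutes of a growth factor, cytokine or stress signal, from preformed factors and without new protein synthesis. Extracellular-signal-regulated kinases (ERK) of the mitogen-activated protein kinase (MAPK) cascade phosphorylate ternary complex factors, which sit with serum response factor on the promoters of Fos and the Egr genes. Their products are short-lived transcription factors, and the MAPK phosphatases Dusp4 and Dusp6 are made in response to the same kinases and inactivate them, so that the mRNAs are widely read as a record of recent MAPK activity.

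The tumors belong to a K14-Cre model of triple-negative breast cancer with floxed alleles (Brca1 f/f; Trp53 f/f), in which Cre under the keratin 14 promoter removes Brca1 and p53 from epithelium, and all 4 groups share these deletions. Tumor pieces were grown in the mammary fat pad of FVB/129P2 females, syngeneic hosts with an intact immune system whose age the labels do not give, and mice were allocated at tumor volumes of 150 to 300 mm3. Vehicle mice (tumors 1269, 1529 and 1536) received DMSO in saline intraperitoneally and saline into the tumor. The ADU-S100 group (1506, 1512 and 1513) received 50 μg of this cyclic dinucleotide, which activates STING, in 1 intratumoral injection of 40 μl, with diluted DMSO intraperitoneally. The olaparib group (1510, 1517 and 1521) received this PARP inhibitor at 50 mg/kg daily with saline into the tumor, and the combination group (1251, 1270 and 1539) received both agents. Tumors were taken at 3 days, so that the values do not describe the first hour after the injection. RNA came from a snap-frozen chunk of whole tumor, in which fewer cells of a type and less RNA per cell cannot be told apart.

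The measurements were nCounter probe counts, scaled per tumor by the authors against positive controls and housekeeping genes, and are called normalized counts below. The counts before scaling were recovered from the step of which each tumor's values are whole multiples, and their totals ranged from 106206 to 1519471 per tumor. In tumor 1517 each count was worth 10.5 normalized counts, against 0.589 to 2.85 in the other 11 tumors, and the olaparib group therefore holds both the most and the least strongly scaled tumor. The value of 1 count was 1.43 to 2.85 with ADU-S100, 0.682 to 1.49 with vehicle and 0.810 to 0.824 with the combination. Every ADU-S100 tumor was thus scaled more strongly than every combination tumor, so that scaling and treatment cannot be told apart there. The normalized values of 1517 rest on 12 recovered counts for Egr2 and 9 for Egr3. The epithelial marker Epcam and Cdh1 were measured in every tumor, and the summed normalized count of the 3 epithelial markers in the table ranged from 10802 to 22177. A list of 6 endothelial markers stood apart in 1517, with a sum of 26492 against 631 (tumor 1510) to 9857 in the other 11 tumors. Numbers beginning with 12 were carried by 1 vehicle tumor (1269) and 2 combination tumors (1251 and 1270) and numbers beginning with 15 by the other 9, and the labels do not explain them.

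Promoter sequence from RefSeq (GRCm38.p6) was used for Fos, Jun, Egr2 and Dusp6. None was used for Egr1, Egr3 and Dusp4, although all 7 symbols are in RefSeq. The 250 bases before the start site are shown for Egr2 and Dusp6, whose normalized counts followed each other most closely, and for Jun, which did not follow Fos. Capitals mark every match, on either strand, to the motifs searched: the CArG box bound by serum response factor, CCGGAA bound by ETS family factors, TGACNTCA bound by ATF and CREB factors and Jun dimers, TGANTCA bound by Fos and Jun as AP-1, and GCGTGGGCG bound by Egr proteins.

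Egr2, chr10:67537316-67537565, plus strand: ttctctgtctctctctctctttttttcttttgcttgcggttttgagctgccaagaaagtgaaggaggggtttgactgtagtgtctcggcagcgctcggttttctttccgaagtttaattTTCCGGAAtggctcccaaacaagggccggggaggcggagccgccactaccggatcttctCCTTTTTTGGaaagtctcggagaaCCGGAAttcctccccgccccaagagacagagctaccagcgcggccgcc
Dusp6, chr10:99262981-99263230, plus strand: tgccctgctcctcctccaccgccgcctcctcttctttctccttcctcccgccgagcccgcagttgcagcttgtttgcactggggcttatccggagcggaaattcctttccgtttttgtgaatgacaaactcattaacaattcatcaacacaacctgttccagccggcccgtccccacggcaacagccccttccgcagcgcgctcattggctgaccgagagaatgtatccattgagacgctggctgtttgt
Jun, chr4:95052223-95052472, minus strand: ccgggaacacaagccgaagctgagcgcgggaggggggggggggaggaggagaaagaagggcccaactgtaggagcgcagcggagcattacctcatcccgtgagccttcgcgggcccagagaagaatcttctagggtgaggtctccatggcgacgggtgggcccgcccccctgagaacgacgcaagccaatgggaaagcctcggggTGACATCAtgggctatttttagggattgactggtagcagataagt

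RefSeq lists 5 start sites for Egr2, and the window shown is the one with the most matches. It holds a CArG box 72 bases before its start and 3 matches to CCGGAA, beginning 131, 129 and 48 bases before it, of which the first and second overlap on opposite strands. The 3 Egr2 windows farther downstream, which overlap each other, share another CArG box, CCATATATGG, 72, 73 and 133 bases before their starts. Over the 32851 RefSeq promoter windows of this length, 1.47% held a CArG box, 12.0% CCGGAA, 7.49% TGACNTCA, 6.75% TGANTCA and 0.536% GCGTGGGCG. The Jun window holds TGACATCA 45 bases before the start, and the windows of Dusp6 and Fos hold no match to any of the motifs. The Fos window has the same length as those shown. Bases farther upstream were not searched, so that the lack of a match says nothing about motifs beyond these windows. A match here is a string of letters and not a measured binding site.

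Fos encodes the partner that Jun needs to form the stronger of the AP-1 dimers. Its normalized count was 3340, 1374 and 1191 in the vehicle tumors and 2119, 1279 and 2735 in the ADU-S100 tumors. It was 5781, 9673 and 1354 in the olaparib tumors 1510, 1517 and 1521. It was 1664, 1519 and 1819 in the combination tumors. The highest values of all 12 tumors were thus those of 1510 and 1517, whereas 1521 lay within the vehicle range, and the combination tumors differed from each other by less than any other group.

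Jun encodes the AP-1 subunit that also pairs with itself and is the substrate of the Jun N-terminal kinases. Its normalized count was 1224, 673 and 679 with vehicle, and 869, 684 and 1385 with ADU-S100. With olaparib it was 284, 1163 and 1276, and with the combination 1456, 801 and 1434. The tumor with the lowest Jun, 1510, had the second highest Fos.

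Egr1 encodes a zinc-finger factor of the early growth response family. It had 3386, 1897 and 1830 normalized counts with vehicle and 1720, 2438 and 4948 with ADU-S100. It had 3219, 1205 and 2417 with olaparib and 1922, 2195 and 2801 with the combination. The ranges of all 4 groups overlapped, the highest value was that of the ADU-S100 tumor 1513 and the lowest that of 1517.

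Egr2, a family member that also acts in myelin formation and in T cells made tolerant to antigen, had 40.9, 92.2 and 63.0 normalized counts in the vehicle tumors. It had 142, 147 and 210 in the ADU-S100 tumors. It had 191, 126 and 37.1 in the olaparib tumors and 33.2, 53.6 and 106 in the combination tumors. All ADU-S100 tumors lay above all vehicle and all combination tumors, while the olaparib group spanned nearly the whole range of the 12 tumors. Before scaling, the recovered Egr2 counts were 50, 75 and 147 with ADU-S100, 60, 62 and 91 with vehicle, and 41, 65 and 129 with the combination. Those counts overlapped between the groups, whose total counts per tumor also differed.

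Egr3, which is induced with Egr2 in activated T cells, had 73.0, 74.3 and 30.5 normalized counts with vehicle and 48.4, 57.0 and 97.0 with ADU-S100. It had 279, 94.3 and 58.9 with olaparib and 34.8, 53.6 and 89.4 with the combination. The olaparib tumor 1510 stood alone at the top, and the other 11 tumors lay between 30.5 and 97.0.

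Dusp4 encodes a nuclear phosphatase that acts on ERK and other MAPKs. It had 3039, 2157 and 1994 normalized counts with vehicle, 2529, 2568 and 4009 with ADU-S100, 2038, 4097 and 2833 with olaparib, and 2844, 1693 and 2653 with the combination. The groups overlapped throughout, and the highest values were those of 1517 and 1513.

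Dusp6 encodes a cytoplasmic phosphatase with a strong preference for ERK. It had 2630, 3115 and 2588 normalized counts with vehicle and 3324, 4000 and 4680 with ADU-S100. It had 3565, 3123 and 2506 with olaparib and 2977, 2577 and 3308 with the combination. As for Egr2, the ADU-S100 tumors lay above every vehicle and combination tumor, but the lowest of them, at 3324, lay just above the highest combination tumor, at 3308. Before scaling, the recovered Dusp6 counts overlapped, with 1167, 2036 and 3280 with ADU-S100 and 3856, 2095 and 3736 with vehicle. They were 3675, 3126 and 4035 with the combination.

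**Figure D1:**
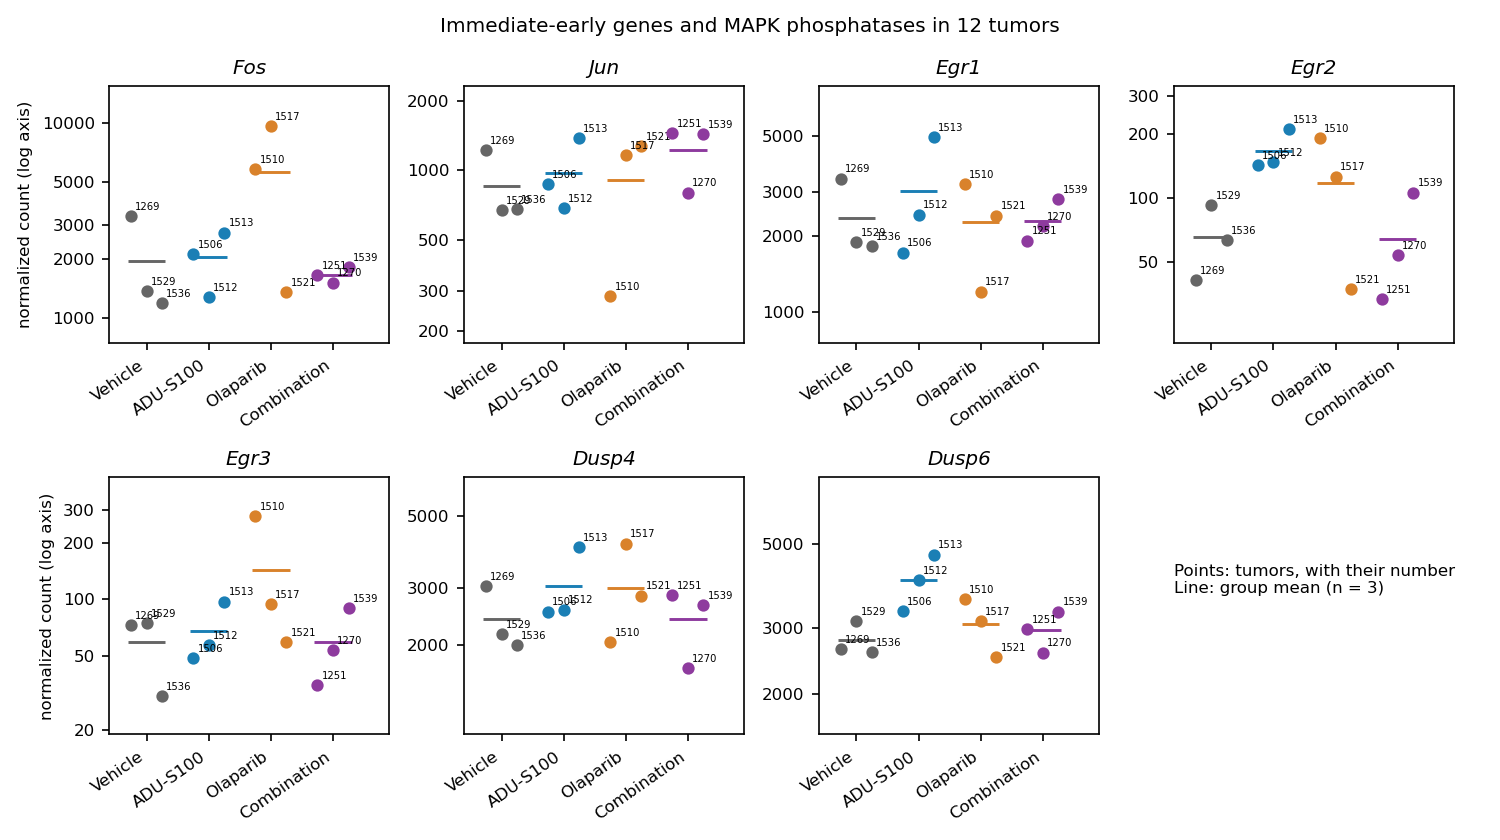
Normalized counts of the 7 genes (log axes, 1 panel per gene) in the 3 tumors of each treatment group, each point labelled with its tumor number, with lines at the group means. For Egr2 and Dusp6 the ADU-S100 tumors sit above all vehicle and combination tumors, and for Fos the olaparib tumors 1510 and 1517 sit above all other tumors.

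The genes differed in how much they varied. The standard deviation of log2(normalized count + 1) over the 12 tumors was 0.95 for Fos, 0.93 for Egr2, 0.82 for Egr3, 0.69 for Jun and 0.54 for Egr1, against a median of 0.83 over the 689 genes tested. The phosphatases varied least, with 0.38 for Dusp4 and 0.28 for Dusp6, and 3.92% of the genes tested had a smaller standard deviation than Dusp6. From the lowest to the highest tumor the normalized count differed 9.14-fold for Egr3, 8.12-fold for Fos, 6.31-fold for Egr2, 5.12-fold for Jun, 4.11-fold for Egr1, 2.42-fold for Dusp4 and 1.87-fold for Dusp6. For each gene the ranges of any neighbouring groups in the order of group means overlapped. The share of the spread that lay within groups was not computed.

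Whether either agent or the combination altered these mRNAs was tested with limma on log2(normalized count + 1) over all 12 tumors, with Benjamini-Hochberg adjustment over the 689 genes that reached 20 normalized counts in at least 3 tumors. None of the 7 genes differed in any of the 8 comparisons at an adjusted p of 0.05, and 0 of all 689 genes (0%) did. In the F test of any difference among the 4 groups, 0 of the 7 and 7.55% of all genes had an unadjusted p below 0.05. Labels do not say whether the tumors came from separate donor tumors, and p-values then measure only the spread between these samples.

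ADU-S100 alone differed most from vehicle in Egr2. The mean normalized count was 167 ± 37.5 (SD, n = 3) with ADU-S100 against 65.4 ± 25.7 (SD, n = 3) with vehicle, a limma log2 fold change of 1.39 (SE 0.63, adjusted p = 0.809). It was the only member with an unadjusted p below 0.05, which 4.79% of all genes had in this comparison. Egr2 and Dusp6 were the members whose ADU-S100 and vehicle tumors did not overlap, a property of 14.9% of the genes tested, but with each tumor rescaled to the same median over the genes tested both overlapped and no member was left without overlap (12.5% of all genes). The Dusp6 mean was 4001 ± 678 (SD, n = 3) against 2778 ± 293 (SD, n = 3), with a limma log2 fold change of 0.52 (SE 0.33, adjusted p = 0.809). All 7 genes had a fold change above 0, from 0.15 for Fos to 1.39 for Egr2, with a median of 0.27, but the median over all genes tested was 0.44 and 78.2% of them were above 0. Of the members, only Egr2 and Dusp6 lay above that median. The overlap after rescaling was examined after seeing the data. The rescaling moved this difference by -0.41 for every gene. Egr2 (0.98) and Dusp6 (0.11) were then the 2 of 7 members above 0, and the difference turned to -0.26 for Fos, -0.22 for Jun, -0.18 for Egr3, -0.14 for Egr1 and -0.078 for Dusp4.

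Olaparib alone gave its largest member difference for Fos. The mean was 5602 ± 4162 (SD, n = 3) against 1968 ± 1191 (SD, n = 3) with vehicle, a limma log2 fold change of 1.26 (SE 0.68, adjusted p = 0.582). Egr3 followed with 144 ± 118 (SD, n = 3) against 59.3 ± 24.9 (SD, n = 3) and a limma log2 fold change of 1.06 (SE 0.62, adjusted p = 0.582). No member had an unadjusted p below 0.05 (7.26% of all genes did), and none had groups that did not overlap (4.79% of all genes). The median log2 fold change was 0.29 for the members and 0.45 for all genes tested. The Fos difference depended on which olaparib tumors were used. Without 1517 it was 0.67, and without 1521 it was 2.09 and passed the threshold (limma adjusted p = 0.044). Without 1521, 55 of all genes tested passed, Fos among them. For Egr3 the difference was 0.43 without 1510 and 1.54 without 1521.

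The combination against vehicle left 6 of the 7 genes within 0.11 of 0 on the log2 scale. The exception was Jun, with a mean of 1230 ± 372 (SD, n = 3) against 859 ± 316 (SD, n = 3) and a limma log2 fold change of 0.53 (SE 0.59, adjusted p = 0.981). The 95% interval of the difference still ran from -0.77 to 1.82 for Jun and from -0.64 to 0.81 for Dusp6, the gene with the narrowest interval. With each tumor rescaled to the same median the Jun difference was 0.32, and the other 6 genes lay between -0.31 and -0.12. With edgeR and TMM factors it was 0.088 for Jun. No member had an unadjusted p below 0.05 (7.69% of all genes) or groups that did not overlap (20% of all genes). The median log2 fold change was 0.00 for the members and 0.21 for all genes tested.

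Set against ADU-S100 alone, the combination had 64.2 ± 37.4 (SD, n = 3) normalized counts of Egr2 against 167 ± 37.5, a limma log2 fold change of -1.50 (SE 0.63, adjusted p = 0.492). Egr2 was again the only member with an unadjusted p below 0.05 (9.14% of all genes), and Egr2 and Dusp6 were the members whose groups did not overlap (31.3% of all genes), while after the median rescaling both overlapped and no member was left without overlap (31.5% of all genes). Dusp6 had 2954 ± 366 (SD, n = 3) against 4001 ± 678, a limma log2 fold change of -0.43 (SE 0.33, adjusted p = 0.648), which was -0.23 after the rescaling. Of the 7 genes only Jun had a fold change above 0, and 40.3% of all genes tested did, with a median of -0.22 over all genes. With the number series as a covariate the Egr2 difference was -0.77. Set against olaparib alone, Fos had 1667 ± 150 (SD, n = 3) normalized counts in the combination against 5602 ± 4162, a limma log2 fold change of -1.35 (SE 0.68, adjusted p = 0.594), and Egr3 a log2 fold change of -1.06, which was -0.43 without 1510. No member had an unadjusted p below 0.05 there (7.26% of all genes), and none had groups that did not overlap (12.8% of all genes). After the rescaling Fos did not overlap there (17.3% of all genes). Without 1521 the Fos difference was -2.17 and passed (limma adjusted p = 0.032), as 1 of 54 genes that did so, and without 1517 it was -0.75. The Jun difference was 0.66 and turned to -0.038 without 1510, and was 1.04 without 1521. The comparisons of the combination share its tumors, and those against vehicle share the vehicle tumors.

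The interaction, which is the ADU-S100 effect in olaparib-treated tumors minus that in tumors without olaparib, was below 0 for every member but Jun. The signs of Jun and Egr1 were not stable: Jun was at 0.48 and turned to -0.22 without 1510, and Egr1 was at -0.16 and turned to 0.39 with each tumor rescaled to the same median and to 0.14 without 1510. It was largest for Egr2, with a limma log2 difference of -2.13 (SE 0.89, adjusted p = 0.411), the only member with an unadjusted p below 0.05 (10.9% of all genes). It was -1.49 for Fos, -1.28 for Egr3, -0.63 for Dusp4 and -0.56 for Dusp6. Without 1517 it was -0.90 for Fos and -0.37 for Dusp4, without 1521 it was -2.32 for Fos, and without 1510 it was -0.66 for Egr3. After the rescaling it was -0.94 for Fos, -0.73 for Egr3, -0.075 for Dusp4 and -0.011 for Dusp6. The median over all genes tested was -0.55, so that the phosphatases lay near the bulk of the panel. Without 1521 the interaction of Egr2 was -2.80 and passed (limma adjusted p = 0.033), as 1 of 86 genes that did so. With the number series as a covariate it was -1.03 (limma adjusted p = 0.896). Averaged over olaparib, ADU-S100 gave differences between -0.60 for Fos and 0.42 for Jun (3.05% of all genes and 0 members with an unadjusted p below 0.05), and averaged over ADU-S100, olaparib gave differences between -0.43 for Egr2 and 0.52 for Fos (7.55% of all genes and 0 members). These averages moved with single olaparib tumors: those of Fos were -0.30 and 0.22 without 1517, and -1.01 and 0.93 without 1521. That of Jun was 0.074 without 1510 and 0.61 without 1521. That of Egr2 was -0.095 without 1521 and -0.68 without 1510. For single values, two-sided exact permutation tests of 3 against 3 tumors cannot go below 0.1, the value reached by Egr2 and Dusp6 in ADU-S100 against vehicle and against the combination. Over 6 against 6 tumors, where 0.0022 is the smallest p these permutations allow, the lowest exact permutation p among the 7 genes was 0.154, for Dusp6 with and without ADU-S100.

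**Figure D2:**
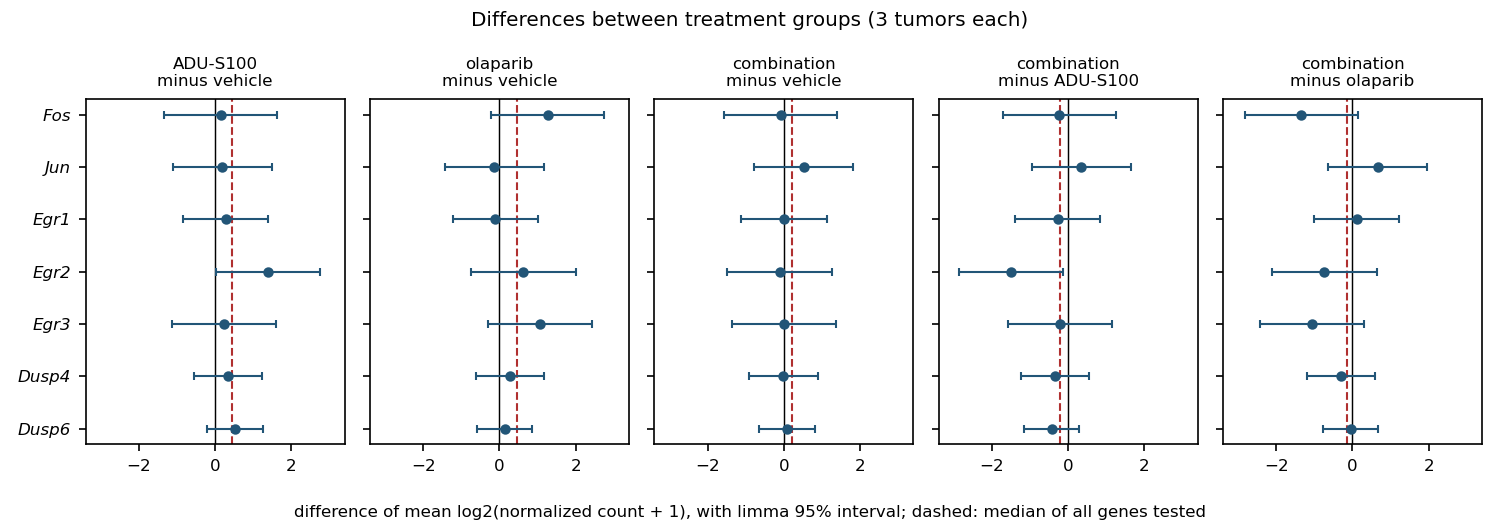
Difference of mean log2(normalized count + 1) for each gene in 5 comparisons of 3 against 3 tumors, with limma's 95% interval, and the median difference of all 689 genes tested as a dashed line. Only the Egr2 intervals for ADU-S100 minus vehicle and combination minus ADU-S100 leave out 0, before adjustment for multiple testing.

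Since these genes answer to a shared cascade, their normalized counts were compared with each other over the 12 tumors, by Pearson's r of log2(normalized count + 1) with 100000 permutations of the tumors and Benjamini-Hochberg adjustment over the 21 pairs. Egr2 and Dusp6 followed each other most closely (r = 0.84, Spearman's rho = 0.90, permutation p = 0.0005, adjusted p = 0.0105), and this was the only pair past the threshold. The genes and so the pairs were chosen with earlier results of these data known, and their p-values are descriptive. Of all pairs among the 689 genes, 4.26% had an r at least as high. Egr2 was the nearest of all genes to Dusp6. The tumors ran from 1521, with the lowest Dusp6 and among the lowest Egr2, to 1513, with the highest of both. The relation did not rest on the extreme tumors, with r = 0.89 without the 2 tumors farthest from the Egr2 median and between 0.81 and 0.91 with each tumor left out. Without the ADU-S100 tumor 1513 r was 0.82, with a permutation adjusted p of 0.052. Within treatments, after removal of group means, r was 0.76 (exact permutation p = 0.019 over 1296 within-group arrangements, adjusted p = 0.167). Among the 9 tumors whose numbers begin with 15, r was 0.89 (permutation adjusted p = 0.033), while the 3 tumors whose numbers begin with 12 were too few to give a value.

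Of the other pairs, 3 had an unadjusted permutation p below 0.05. Fos and Egr3 had r = 0.68 (rho = 0.66, adjusted p = 0.167), which was 0.80 without 1517 and 0.51 without 1510 and 1517. Jun and Dusp4 had r = 0.64 (rho = 0.70, adjusted p = 0.167), which was 0.85 with group means removed. Egr2 and Egr3 had r = 0.59 (rho = 0.57, adjusted p = 0.182). Fos and Jun did not follow each other (r = -0.12, rho = 0.18, permutation p = 0.713), and this value rested on 1510. Without 1510 r was 0.42, and without 1517 it was -0.33. Jun had r = -0.40 with Egr2 and r = -0.44 with Egr3 (rho = -0.035), neither past the threshold, and the value with Egr3 rested on 1510, without which it was 0.37. Dusp4 and Dusp6, the phosphatases of the group, had r = 0.39 (rho = 0.22, adjusted p = 0.353). The median r was 0.22 over their 21 pairs and 0.30 over the 237016 pairs of genes tested, and 16 of 21 pairs (76.2%) were above 0 against 71.6% of all pairs.

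**Figure D3:**
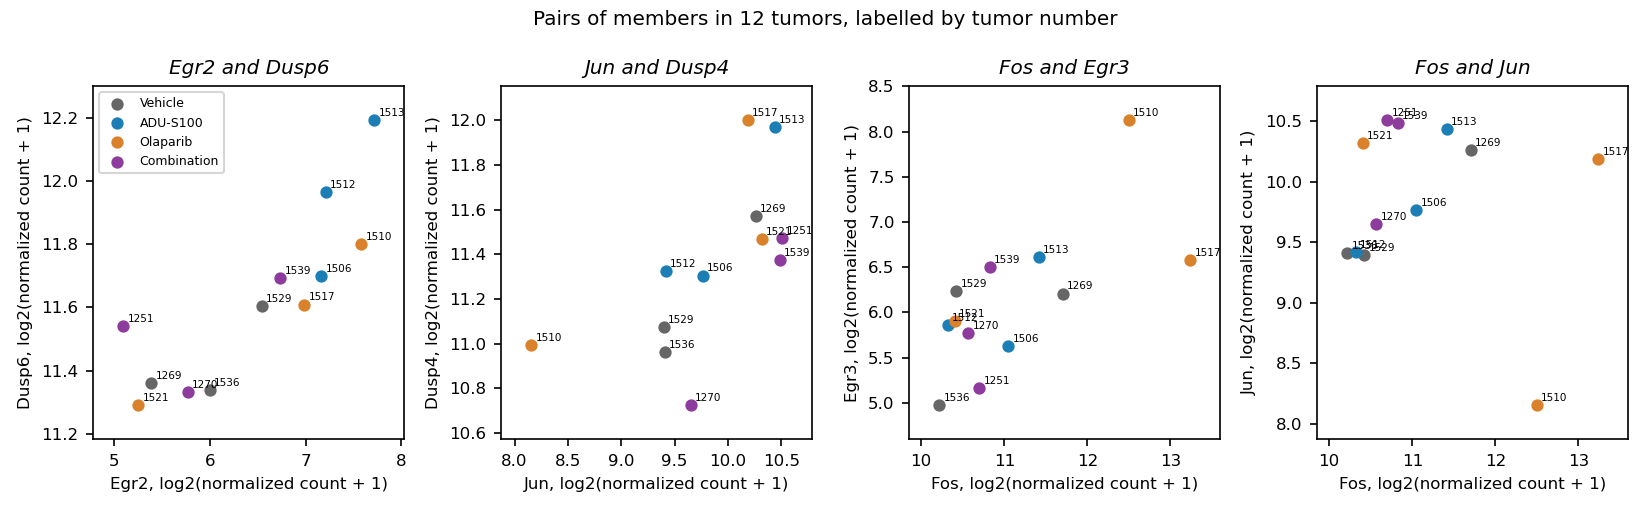
Values of 4 pairs of genes in the 12 tumors, as log2(normalized count + 1) on both axes, with points colored by treatment and labelled by tumor number. Egr2 and Dusp6 line up over all treatments (r = 0.84), whereas for Fos and Jun the olaparib tumor 1510 lies far from the others, with a high Fos and the lowest Jun.

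The common positive r over the panel moved with the scaling of the tumors. The median log2 value of the 689 genes ranged from 7.08 to 8.71 over the tumors, and the median r of single genes with log2 of the scaling step was 0.59. Among the members, r with the scaling step was 0.69 for Fos (rho = 0.38, permutation p = 0.018) and 0.64 for Egr2 (rho = 0.73, permutation p = 0.018), with an adjusted p of 0.064 for both over the 7 genes, and between -0.45 (Egr1) and 0.42 (Dusp6) for the others. Without 1506 and 1517, the tumors farthest from the median step, it was 0.33 for Fos, -0.60 for Jun, 0.27 for Egr1, 0.84 for Egr2, 0.58 for Egr3, -0.031 for Dusp4 and 0.80 for Dusp6, so that Egr1 and Dusp4 turned the sign. Among the 9 tumors whose numbers begin with 15 it was 0.77 for Fos and 0.54 for Egr2.

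**Figure D4:**
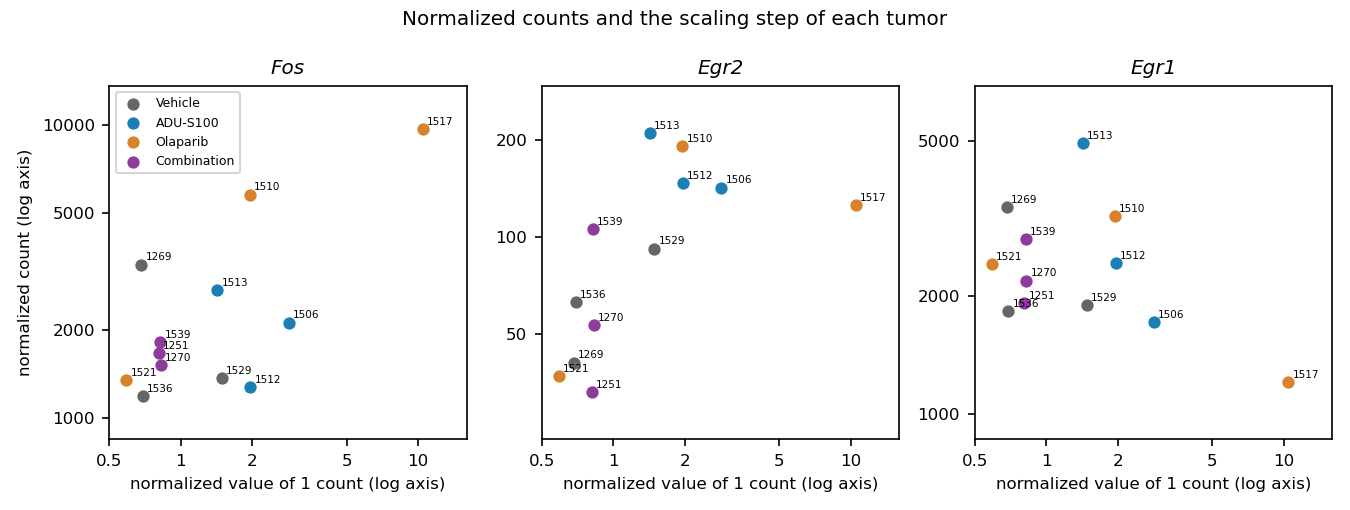
Normalized counts of Fos, Egr2 and Egr1 against the normalized value of 1 count (both log axes) in the 12 tumors, colored by treatment and labelled by tumor number. Tumor 1517, at 10.5, has the highest Fos and the lowest Egr1, and the 5 tumors with the highest Egr2 each had a step between 1.43 and 10.5.

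When each tumor was rescaled to the same median, the pairs that stood out were different. The median r of the members was then 0.51 against 0.04 over all pairs of genes tested, and 4 of the 21 pairs passed the threshold. These were Egr1 and Dusp6 (r = 0.94, permutation adjusted p = 0.00021), Jun and Dusp4 (r = 0.81), Dusp4 and Dusp6 (r = 0.79) and Egr1 and Dusp4 (r = 0.78), the last 3 with a permutation adjusted p of 0.013. As deposited, Egr1 and Dusp6 had r = 0.44 (rho = 0.30). Egr2 and Dusp6 had r = 0.55 after rescaling (adjusted p = 0.132). The rescaling takes from every gene a term with a standard deviation of 0.54 over the tumors, which is larger than the 0.28 of Dusp6 and the 0.38 of Dusp4 themselves. The 173 genes with the highest mean log2 values, among them 5 members, had a median r of 0.37 after rescaling and 0.11 as deposited, so that highly counted genes moved together under this scaling. Without 1517, Egr1 and Dusp6 kept r = 0.91 and 7 pairs passed after rescaling. The share of all gene pairs with such an r after rescaling was not computed, so that these counts cannot be set against the panel. With log2 of the scaling step regressed out of each gene instead, Egr2 and Dusp6 (r = 0.82), Jun and Dusp4 (r = 0.79), Egr1 and Dusp6 (r = 0.78) and Egr1 and Egr2 (r = 0.72) passed.

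**Figure D5:**
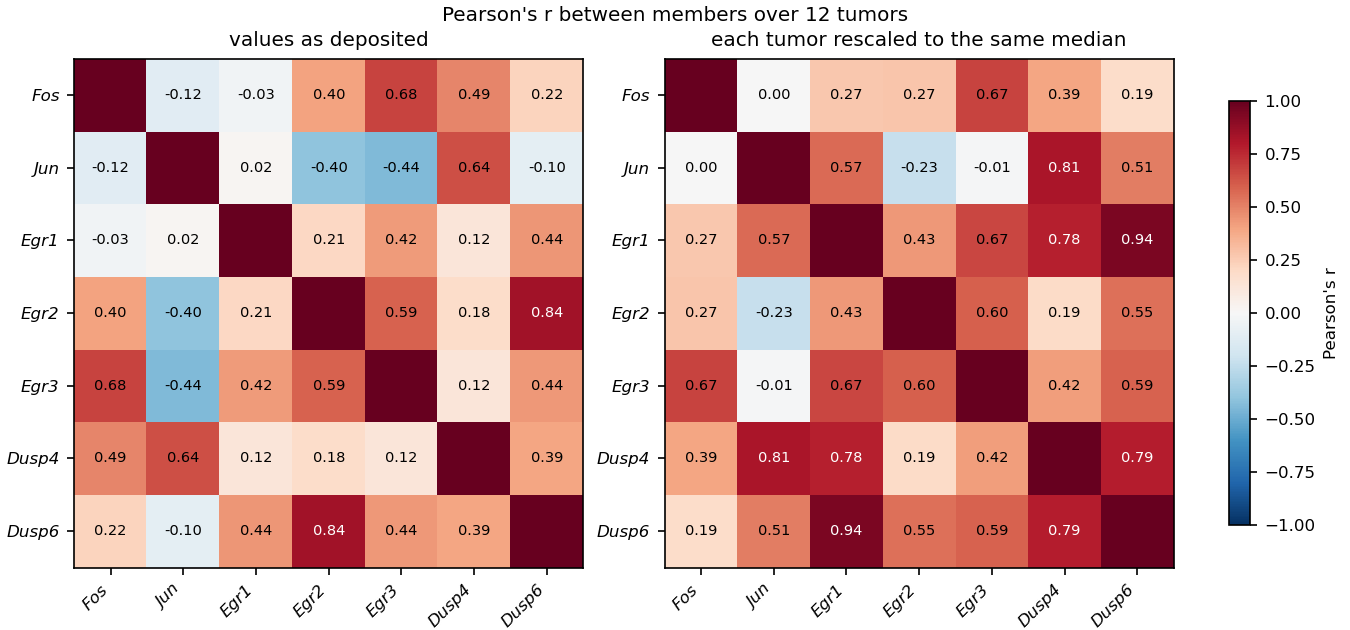
Pearson's r for each pair of the 7 genes over 12 tumors, with values as deposited (left) and with each tumor rescaled to the same median (right), on a color scale from -1 to 1. Egr2 and Dusp6 lead on the left (0.84) and Egr1 and Dusp6 on the right (0.94), while Fos and Jun stay near 0 in both.

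The genes of the panel whose values ran most like each member over the 12 tumors are given by r, as a description. Fos ran with Erbb2, a receptor tyrosine kinase upstream of MAPK signaling (0.96), and with Pnma1 (0.92) and Bcl6, a transcriptional repressor (0.88). Erbb2 had its highest normalized counts in 1517 (5292) and 1510 (2431), as Fos did, and 626 to 1544 in the other 10 tumors. Without 1517, r was 0.92 for Erbb2, 0.83 for Pnma1 and 0.74 for Bcl6, and without both 1510 and 1517, a choice made after seeing the data, it was 0.84, 0.57 and 0.68. Jun ran with the interferon receptor chain Ifnar2 (0.87), the kinase Map3k7 (0.87) and Jak2 (0.85), which were 0.63, 0.64 and 0.60 without 1510. Egr1 ran with the transcription factor Cebpb (0.74), the kinase Fyn (0.73) and the transferrin receptor Tfrc (0.72), which were 0.60, 0.57 and 0.64 without 1517. Egr2 ran with the kinase Abl1 (0.89), the transcription factor Atf2 (0.88) and the kinase Tyk2 (0.84). Egr3 ran with Tollip (0.80), Ikzf2 (0.79) and Vhl (0.79), and these values rested in part on 1510, without which they were 0.54, 0.66 and 0.48. Dusp4 ran with Reps1 (0.85), with Map2k1, which encodes the ERK kinase MEK1 (0.74), and with Cdh1, which encodes E-cadherin (0.68). After Egr2, Dusp6 ran with Tab1 (0.80) and Atf2 (0.79).

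The kinases and factors around these genes on the panel gave no difference past the threshold either. Of 14 MAPK cascade kinases and GTPases, 0 had an unadjusted F p below 0.05, against 7.55% of all genes, a share at which lists of this size hold about 1 such gene, and Hras, Mapk11 and Mapk8 had the lowest. Hras had mean log2 values of 5.42 with vehicle, 6.38 with ADU-S100, 6.64 with olaparib (6.30 without 1517) and 5.08 with the combination (limma F adjusted p = 0.628). The median log2 fold change of the list for ADU-S100 against vehicle was 0.25, with 11 of 14 above 0, against a median of 0.44 and 78.2% above 0 over all genes tested. Of 17 transcription factors upstream of or beside the immediate-early genes 0 had an unadjusted F p below 0.05, with Nfatc2, Nfkb1 and Nfatc1 lowest, and their median for ADU-S100 against vehicle was also 0.25. Of 19 growth factor receptors and ligands 0 did, with Igf1r, Csf2 and Csf3 lowest. Igf1r, the receptor of insulin-like growth factor 1, had mean log2 values of 7.72 with vehicle, 9.53 with ADU-S100, 9.79 with olaparib (8.82 without 1517) and 7.74 with the combination (limma F adjusted p = 0.628).

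Among 14 other early-response genes 3 had an unadjusted F p below 0.05, against 7.55% of all genes, and 0 passed after adjustment. The chemokine gene Ccl2 had mean log2 values of 9.37 with vehicle, 10.38 with ADU-S100, 8.33 with olaparib (8.95 without 1517) and 9.30 with the combination. Nfkbia, which encodes the inhibitor of NF-κB that NF-κB itself induces, had 8.13, 8.78, 9.73 (9.38 without 1517) and 8.96 in that order. Ptgs2, which encodes cyclooxygenase-2, had 7.01, 8.53, 6.28 (5.997 without 1517) and 5.69. Ccl2 and Ptgs2 thus had their highest group mean with ADU-S100, as Egr1, Egr2, Dusp4 and Dusp6 did, and Nfkbia with olaparib, as Fos and Egr3 did. For ADU-S100 against vehicle this list had 13 of 14 genes above 0 and a median log2 fold change of 0.84, against 78.2% above 0 and a median of 0.44 over all genes tested. The 2 other phosphatases measured, Ptprc and Inpp5d, had F adjusted p-values of 0.793 and 0.915 in limma.

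Marker mRNAs of cell types in the chunk also differed between tumors. The summed normalized count of 12 leukocyte markers ranged from 2818 to 5712 with vehicle, 5002 to 11287 with ADU-S100, 3930 to 5650 with olaparib and 4198 to 4987 with the combination, and the highest, 11287, belonged to the ADU-S100 tumor 1512. The neutrophil gene S100a8 contributed the largest count to the sum in 10 of the 12 tumors and made up from 10.4% of the sum in 1517 to 65.8% in 1512. Without S100a8 the sum ranged from 1712 to 4433 with vehicle, 3223 to 5124 with ADU-S100, 2177 to 3521 with olaparib and 2740 to 3446 with the combination, and the highest was in the ADU-S100 tumor 1506. Ptprc, the pan-leukocyte marker CD45, was highest in the ADU-S100 tumor 1506 (1003 normalized counts, against 485 in 1512). Of the 11 leukocyte markers tested 3 had an unadjusted F p below 0.05, against 7.55% of all genes. Cd4 had mean log2 values of 5.11 with vehicle, 5.69 with ADU-S100, 6.69 with olaparib and 6.86 with the combination. Itgax had 6.33, 6.55, 6.93 and 7.50 in that order. The third was Ncam1, with 9.41, 9.52, 8.05 and 8.34. It marks natural killer cells in humans but not in mice and is no leukocyte marker here. Without Ncam1 the sum was still highest in 1512, at 10714. The sum of 7 fibroblast and matrix markers ranged from 18395 to 94232, 36733 to 60604, 7209 to 30935 and 15526 to 30038 in the same order, with 2 of the 7, Fn1 and Col1a1, at an unadjusted F p below 0.05 and Col3a1 next, and its lowest value was in 1510, where Egr3 was highest and Jun lowest. The 6 endothelial markers ranged from 1387 to 9857, 1672 to 8240, 631 to 26492 and 1486 to 2013, with Kdr, Cd34 and Cdh5 lowest in F p. The highest sum was in 1517, where Fos was highest, and the lowest, 631, was in 1510, where Fos was second highest. The 3 epithelial markers Muc1, Epcam and Cdh1 ranged from 10802 to 21499, 11861 to 19063, 12324 to 22177 and 17779 to 20694. The part of these cells in the values of the 7 genes was not tested.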

How the data were processed

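RNA of 12 tumors was measured with the nCounter mouse immune panel from 100 ng. The authors deposited a linear signal, made from probe counts in nSolver 4.0: after quality control they corrected for background and scaled each tumor by its positive controls and by the geometric mean of housekeeping genes. Scaling also multiplies the counting error of weakly counted tumors. No control probe was used here, so that the scaling could not be repeated.

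Groups came from the sample labels. The counts were recovered as whole multiples of each tumor's step (at least 99.87% of values within 0.01 of a whole count), and values at the floor of 1 were left out of this share. limma 3.58.1 in R 4.3.3 fitted 1 mean per group to log2(normalized count + 1) over the 689 genes with at least 20 in at least 3 tumors, with Benjamini-Hochberg adjusted p-values. A log2 fold change on this scale understates the change of low genes. edgeR 4.0.16 was run on the recovered counts as an alternative. Scripts were tested on simulated data. Correlations and exact tests used Python 3.11.15 with numpy 2.4.6, with ranks from scipy 1.17.1. Figures used matplotlib 3.10.9.

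Named were all 7 genes, the 3 nearest to each by r, and in each list the 3 with the lowest F p. The 7 genes and the lists were chosen with earlier results of these data known. Alternatives were a pseudocount of 10, no filter or a filter at 50, median and quantile scaling, an intensity trend, the compared groups alone, the methods' t-test, the scaling step or number series as a covariate, and each tumor left out. Leaving out 1510 with 1517, and 1517 after rescaling, were chosen after seeing the data. All 7 symbols are in RefSeq, and promoter windows were used for 4 of the 7 genes.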

Additional observations from a re-analysis of the deposited data

How the results depend on the processing

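No paired analysis was possible because the groups share no replicate numbers, only tumor numbers that differ between groups. Of the gene differences given above, 26 were recomputed under 628 alternatives, of which 34 turned the sign and 3 passed the threshold, and each of the 26 moved by over 1.5 times under at least 1 alternative. With each tumor rescaled to the same median, ADU-S100 minus vehicle was -0.26 for Fos, -0.22 for Jun, -0.18 for Egr3, -0.14 for Egr1 and -0.078 for Dusp4. With edgeR and TMM it was -0.54 for Fos, -0.35 for Jun, -0.23 for Egr3, -0.12 for Egr1 and -0.17 for Dusp4. After quantile normalization it was -0.077 for Jun and -0.49 for Egr3, and with the scaling step as a covariate -0.45 for Fos. With each tumor left out it ranged from -0.14 (without 1536) to 0.61 for Fos, from -0.096 (without 1513) to 0.47 for Jun, from -0.19 (without 1536) to 0.44 for Egr3 and from -0.15 (without 1513) to 0.61 for Egr1. The interaction of Egr1 was 0.39 after median rescaling, 0.20 after quantile normalization and 0.044 with edgeR and TMM, and ranged from -0.57 (without 1517) to 0.26 (without 1513) with each tumor left out, and that of Jun ranged from -0.22 (without 1510) to 0.86. Leaving out 1510 and 1517, the tumors with the highest Fos, leaves 1521 as the only olaparib tumor, so that the lower Fos follows from the choice: Fos was then -0.38 in olaparib minus vehicle and 0.30 in combination minus olaparib, and Jun was -0.10 in the latter. The interaction was then 0.15 for Fos and -0.29 for Jun, and the averaged effects on Fos were 0.22 for ADU-S100 and -0.31 for olaparib. In combination minus olaparib, Jun ranged from -0.038 (without 1510) to 1.04 with each tumor left out. The member count past the threshold ranged from 0 to 1 with each tumor left out in olaparib minus vehicle, combination minus olaparib and the interaction, and the 1 came in each without 1521; in no other alternative did a member pass. Egr2 and Dusp6 kept their sign under all alternatives run in ADU-S100 minus vehicle and in combination minus ADU-S100, and Egr2, Egr3, Dusp4 and Dusp6 in the interaction. The count of correlated pairs was 1, and was 4 after median rescaling, 7 after median rescaling without 1517, 4 with the scaling step regressed out, 0 after quantile normalization, 0 with group means removed, and between 0 (without 1513) and 1 with each tumor left out. Of 10 correlations under 220 alternatives, 11 turned the sign. Those were Fos and Jun, at 0.18 by Spearman's rho, 0.057 with group means removed, 0.0079 with the step regressed out, 0.11 after median rescaling without 1517, 0.56 without 1510 and 1517 or the 2 tumors farthest from the median, and from -0.33 to 0.42 with each tumor left out, Egr1 and Dusp4, from -0.30 (without 1513) to 0.60 with each tumor left out, and Jun and Egr3, at 0.34 without 1510 and 1517, 0.49 without the 2 tumors farthest from the Jun median, and from -0.60 to 0.37 (without 1510) with each tumor left out. Few recovered counts limit Egr2 and Egr3 in 1517, and 3 tumors per group limit every comparison. The smallest difference that could be detected for Fos or Egr2 was not computed.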
